A study of Mus musculus with 34 samples.

Results

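A list of 37 genes of DNA repair and of the checkpoints that hold the cell cycle while DNA is copied or mended was followed across fetal livers that lacked different combinations of the retinoblastoma family. The genes were listed by name and role. Of the 37, 36 had a named probe set among the 18193 genes represented on the array, and Xrcc2 was not analysed here. All 36 passed the filter on low signal, out of 12723 genes that did, and 34 of the 36 reached a signal of 100 on every array. The exceptions were Bard1, which reached it on 33 of the 34 arrays, and Polq, which reached it on 20.

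Total RNA from freshly isolated, unsorted mouse fetal liver was measured on 34 one-colour Affymetrix arrays. The labels give embryonic day 14.5 for each array, and the series design gives days 13.5 to 14.5. There were 2 wild-type arrays, 1 array of the p107 knockout (KO), 3 of the p130 KO, 6 of the p107;p130 double knockout (DKO), 2 of the Rb1 KO, 5 of the Rb1;p107 DKO, 9 of the Rb1;p130 DKO and 6 of the Rb1;p107;p130 triple knockout (TKO). No group was treated. The labels name neither the strain, the alleles nor the means of deletion. They also leave unsaid whether arrays came from separate animals, so the tests reflect the scatter among these arrays, which may be technical. In all, 22 arrays lacked Rb1 and 12 carried it, 18 lacked p107 and 16 carried it, and 24 lacked p130 and 10 carried it.

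The retinoblastoma proteins Rb1, p107 and p130 bind E2F transcription factors and hold down the genes that a cell needs to enter and complete DNA replication. Many genes of homologous recombination, of the Fanconi anaemia pathway, of mismatch repair and of the replication checkpoint are known E2F targets. Their products are made as cells copy DNA: recombination proteins rebuild broken forks from the sister chromatid, Fanconi proteins unhook crosslinks, and the ATR-CHK1 branch slows replication when forks stall. The fetal liver at this stage is the main site of red cell formation and is rich in dividing erythroid precursors.

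The signals of Rb1 and p107 separated the arrays as labelled, and that of p130 did so with overlap. The signal of Rb1 was 756 to 1746 on arrays labelled as lacking it and 5208 to 9085 on the others. That of Rbl1, the gene of p107, was 43.9 to 139 against 1185 to 2713. That of Rbl2, the gene of p130, was 105 to 265 against 246 to 481, so these ranges overlapped. Across genes, which are no independent replicates, the correlation of any array pair was r = 0.929 to 0.983. The summed signal of 7 erythroid markers was 88538 to 147780 per array and that of 8 hepatocyte markers 123120 to 207800, so RNA of both cell types of the labelled tissue was found on every array. Xist, which marks female samples, was present on 0 of 2 Rb1 KO arrays and on 3 of 3 p130 KO arrays. It was present on 1 of 6 p107;p130 DKO arrays and on 4 of 6 TKO arrays. In the other genotypes it was present on 1 of 2 wild-type, 0 of 1 p107 KO, 3 of 5 Rb1;p107 DKO and 5 of 9 Rb1;p130 DKO arrays.

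Promoter sequence was taken from RefSeq (GRCm38.p6) as the 250 bases before and 50 bases after each gene's annotated start, which was found for 30 of the 37 genes. The first window listed was used for each gene. E2F-type words were searched as TTTCCCGC, TTTGGCGC, TTTCGCGC and TTTGCCGC on both strands, and the CCAAT box, a common element of cell-cycle promoters, as CCAAT on both strands. An E2F-type word stood in 7 of these 30 first windows (23.3%), against 426 of 10283 windows of tested genes (4.14%) and 626 of all 27025 windows (2.32%). CCAAT stood in 16 of the 30 (53.3%) against 38.4% of windows of tested genes and 37.9% of all, and TTTGAA, the core of the cell cycle homology region, in 3 of the 30 (10.0%) against 1231 of the 10283 and 18.1% of all. The 7 genes with an E2F-type word in that window were Brca2, Bard1, Msh6, Xrcc6, Chek2, Clspn and Topbp1. Rad54l and Rmi1 had a second window, which was not counted, and that of Rmi1 holds TTTGGCGC at 27 bases after its start. A match is a description of the letters and not a measured binding site.

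The promoters of Brca1 and Clspn are shown because these 2 genes passed the test for Rb1 loss, and short stretches of 5 others because they hold an E2F-type word before the start of a gene that did not pass. The 5 were chosen after their values were seen. Each is written 5′ to 3′ on the gene's own strand, with E2F-type words and CCAAT boxes on either strand in capitals.
Brca1 (chr11:101551956-101552205, minus strand): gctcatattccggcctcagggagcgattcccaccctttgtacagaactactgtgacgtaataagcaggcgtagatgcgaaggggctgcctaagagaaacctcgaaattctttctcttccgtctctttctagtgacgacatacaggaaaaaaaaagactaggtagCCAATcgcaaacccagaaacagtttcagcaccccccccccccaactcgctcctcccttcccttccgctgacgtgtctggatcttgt
Clspn (chr4:126556759-126557008, plus strand): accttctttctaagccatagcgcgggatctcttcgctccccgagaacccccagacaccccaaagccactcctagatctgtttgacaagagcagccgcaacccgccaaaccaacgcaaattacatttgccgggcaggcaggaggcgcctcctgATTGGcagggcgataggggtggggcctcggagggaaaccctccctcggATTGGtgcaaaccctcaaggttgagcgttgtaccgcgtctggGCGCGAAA
Brca2 (chr5:150522427-150522486, plus strand): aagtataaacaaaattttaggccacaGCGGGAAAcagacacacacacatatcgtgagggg
Bard1 (chr1:71103148-71103207, minus strand): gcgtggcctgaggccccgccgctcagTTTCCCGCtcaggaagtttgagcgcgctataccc
Xrcc6 (chr15:82016297-82016356, plus strand): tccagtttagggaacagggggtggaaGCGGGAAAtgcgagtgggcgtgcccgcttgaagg
Chek2 (chr5:110839805-110839864, plus strand): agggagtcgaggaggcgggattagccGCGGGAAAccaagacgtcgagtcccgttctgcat
Topbp1 (chr9:103305172-103305231, plus strand): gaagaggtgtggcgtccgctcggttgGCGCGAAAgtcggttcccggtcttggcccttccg

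The Brca1 stretch runs from base -250 to base -1 relative to the start and holds 1 CCAAT box, at -86, and no E2F-type word. The Clspn stretch runs from -221 to 29 and holds 2 CCAAT boxes on the minus strand, at -69 and -21, and an E2F-type word that begins 22 bases after the start. In the other 5 the E2F-type word begins at -168 in Brca2, -209 in Bard1, -46 in Xrcc6, -152 in Chek2 and -129 in Topbp1.

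The first question was how these genes differed between livers with and without Rb1 once the states of p107 and p130 were taken into account. Brca1, the central ubiquitin ligase of homologous recombination, and Clspn, the adaptor through which ATR activates CHK1 at stalled forks, were higher without Rb1. The other 34 genes did not pass the test. In an additive limma fit over the 34 arrays, with 1 term for each deleted gene, 2 of the 36 members were called higher and 0 lower at a Benjamini-Hochberg adjusted p under 0.05. Of all 12723 genes, 2.26% were called in that comparison, 1.75% higher and 0.511% lower, so the members' count of 2 (5.56%) rests on a pair of genes. The fitted change was above 0 for 22 members and below 0 for 14, with a median of 0.05 on the log2(signal + 32) scale, beside a median of -0.02 and 45.0% above 0 over all genes. At an unadjusted p under 0.05 stood 6 of the 36 (16.7%), against 11.3% of all genes.

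Brca1 had a MAS5 signal of 1637 and 2742 in the 2 wild-type livers and of 2349 in the p107 KO. It was 1872, 2100 and 2713 in the p130 KO. In the 6 p107;p130 DKO livers it ran from 1669 through a median of 2259 to 3011. All 4 genotypes that carried Rb1 overlapped one another.

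Without Rb1, Brca1 was at 2139 and 2789 in the Rb1 KO and at 2166, 3156, 3366, 3599 and 3581 in the Rb1;p107 DKO. It ran from 2229 through 2915 to 3279 in the Rb1;p130 DKO and from 2664 through 3384 to 3965 in the TKO. The Rb1 KO values overlapped those of wild type, while 20 of the 22 arrays without Rb1 lay above the median of those with it (2225) and 11 lay above their highest. The fitted difference for loss of Rb1 was 0.42 ± 0.09 (SE, log2), or 1.34-fold, with an adjusted p of 0.00375 in limma.

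Clspn had a signal of 2284 and 3324 in wild type and 2606 in the p107 KO. It was 2521, 2631 and 1962 in the p130 KO, and 2186 to 3134 with a median of 2598 in the p107;p130 DKO. As for Brca1, the genotypes that carried Rb1 overlapped.

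Clspn signals without Rb1 were 3250 and 4025 in the Rb1 KO and 3094, 3617, 3419, 4431 and 4700 in the Rb1;p107 DKO. They were 1911 to 3736 with a median of 3196 in the Rb1;p130 DKO, and 2356 to 4647 with a median of 3919 in the TKO. The Rb1 KO values overlapped those of wild type. The lowest Rb1;p130 DKO array lay below every array that carried Rb1, and 12 of the 22 arrays without Rb1 lay above the highest with it. The fitted difference was 0.41 ± 0.09 (SE, log2), or 1.33-fold, with an adjusted p of 0.00675 in limma. This value came from the brighter of 2 Clspn probe sets. The other moved by 0.13 with an adjusted p of 0.845 in a fit over all probe sets, and the mean of both moved by 0.27 with an adjusted p of 0.194.

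Brca1 was read by 4 probe sets, which moved by 0.42, 0.41, 0.28 and 0.41 with Rb1 loss. The first and second passed in the fit over all 28005 probe sets, with adjusted p-values of 0.00491 and 0.00436, and the others had 0.216 and 0.208. Over the 73 tested probe sets of all members, 3 were called higher and 0 lower. The share called over all 28005 probe sets was not counted, so this count has no background beside it.

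**Figure D1:**
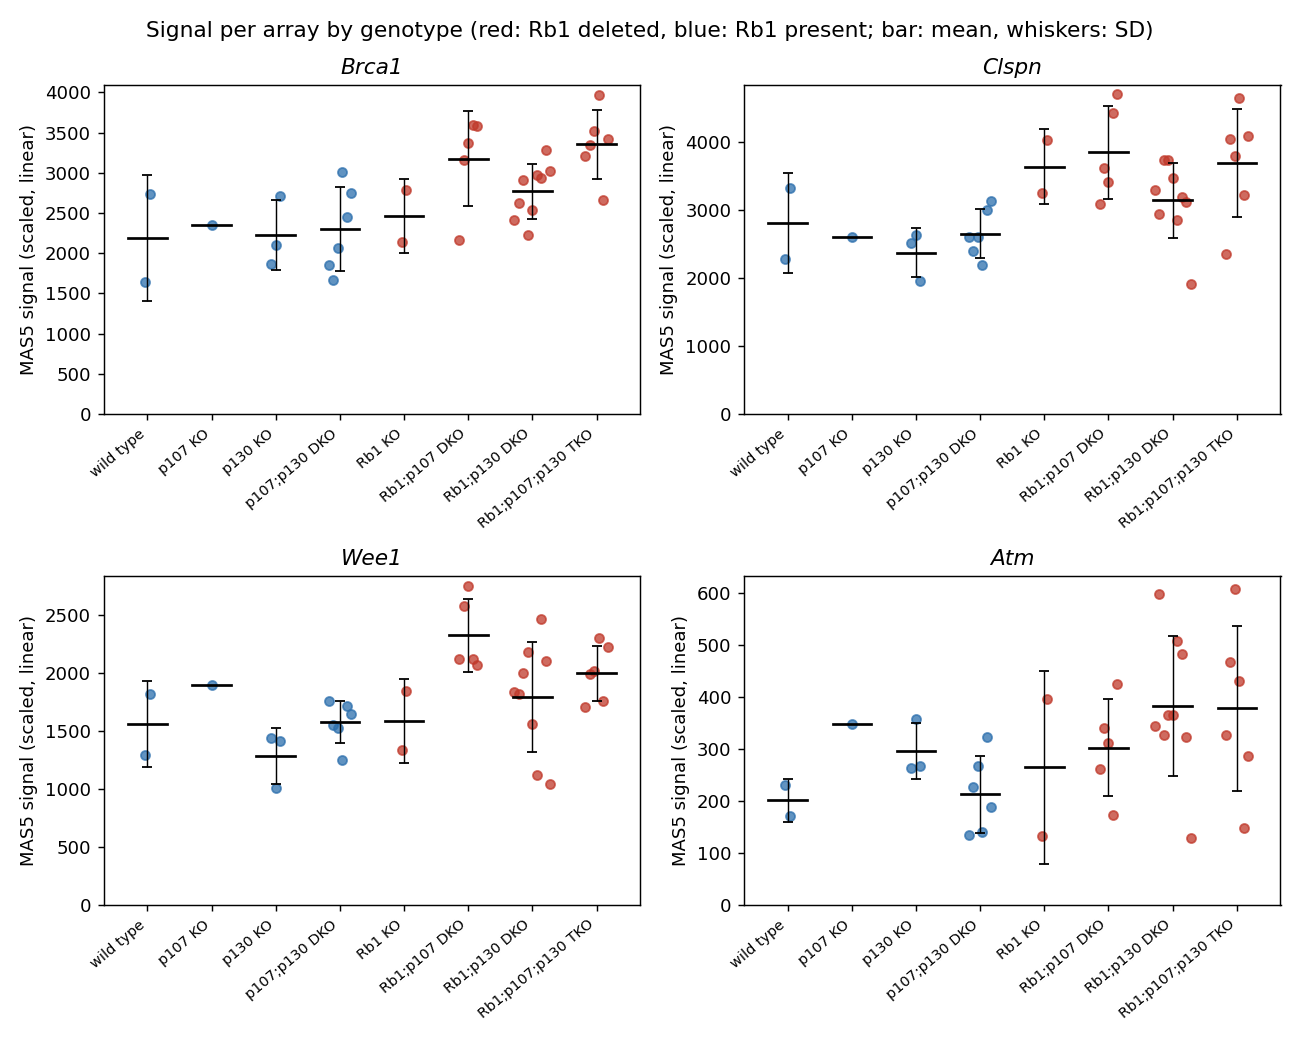
Each point is the scaled linear MAS5 signal of 1 array, for Brca1, Clspn, Wee1 and Atm in 8 genotypes, red without Rb1 and blue with it, with bars at the mean and whiskers of 1 SD. For both Brca1 and Clspn, 5 of the 6 TKO arrays stand above every p107;p130 DKO array, while Rb1 KO and wild-type arrays overlap for both genes.

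The checkpoint genes had the highest median change of the 6 roles, though differences between roles were not tested. With Rb1 loss, 8 of 9 were above 0 and 1 below, with a median of 0.12 and 1 called, Clspn. Wee1, the kinase that holds CDK1 inactive before mitosis, came next. Its signal was 1295 and 1819 in wild type, 1894 in the p107 KO, 1438, 1009 and 1412 in the p130 KO, and 1251 to 1758 with a median of 1597 in the p107;p130 DKO. Its signal was 1332 and 1843 in the Rb1 KO, 2119, 2578, 2753, 2121 and 2068 in the Rb1;p107 DKO, 1041 to 2468 with a median of 1837 in the Rb1;p130 DKO, and 1711 to 2301 with a median of 2001 in the TKO. Every Rb1;p107 DKO array lay above every array that carried Rb1, and the other genotypes without Rb1 overlapped those arrays. This separation was seen in the values, and the share of all genes that separate in this way was not counted. Of the Rb1;p107 DKO arrays, 4 lie in the second of the array groups described below. Among arrays that carried Rb1, the mean of Wee1 was 10.8 (log2) in that group. It was 10.5 in the first group and 10.4 in the third. The fitted difference of Wee1 with Rb1 loss was 0.34 ± 0.10 (SE, log2), or 1.27-fold, with an adjusted p of 0.0534 in limma, which misses the threshold.

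Atm, the kinase that responds to double-strand breaks, had the widest spread of all members, with an SD of 0.56 on the log2 scale over the 34 arrays. Its signal was 231 and 171 in wild type, 348 in the p107 KO, 263, 358 and 267 in the p130 KO, and 135 to 324 with a median of 208 in the p107;p130 DKO. It was 133 and 396 in the Rb1 KO, 261, 340, 312, 174 and 425 in the Rb1;p107 DKO, 130 to 598 with a median of 366 in the Rb1;p130 DKO, and 149 to 608 with a median of 379 in the TKO. The pooled ranges of arrays with and without Rb1 overlapped. Both wild-type arrays lay below all 3 of the p130 KO, but the share of all genes that separate like this was not counted. The change of Atm with p130 loss over all backgrounds was 0.21 with an adjusted p of 0.713 in limma. The difference with Rb1 loss was 0.45 ± 0.18 with an adjusted p of 0.277. A second Atm probe set moved by 0.09.

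The remaining checkpoint genes did not pass. Atr, the kinase that senses single-stranded DNA at forks, moved by 0.20, and its effector Chek1 by 0.03. Chek2, the effector of Atm, had the smallest spread of all members (SD 0.09, log2) and moved by 0.06. Topbp1, the activator of Atr, moved by 0.04, and Tipin and Timeless, partners in the complex that steadies the fork, by 0.12 and -0.08. The 95% intervals of all of these lay within 1.5-fold of no change.

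In homologous recombination, 3 of 7 genes were above 0 and 4 below, with a median of -0.02 and Brca1 as the called gene. Brca2, a tumour suppressor of homologous recombination, moved by 0.21 ± 0.12 with an adjusted p of 0.556, and Bard1, the obligate partner of Brca1, by 0.17 ± 0.10 with 0.551. Palb2, the bridge between Brca1 and Brca2, moved by -0.04 and Rad51ap1 by -0.03. Rad54l, the motor that helps strand exchange, and Xrcc3, which also acts in recombination, moved by -0.07 and -0.02. The partners of Brca1 were therefore not called with it, and whether their changes differed from that of Brca1 was not tested.

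Of the 7 genes of break sensing, resection and junction processing, 4 were above 0 and 3 below, with a median of 0.10 and 0 called. Rad50 and Nbn, subunits of the complex that binds broken ends, moved by 0.19 and 0.14. Blm and Rmi1, a helicase and its partner that dissolve crossed junctions, moved by 0.17 and 0.10. Exo1, the nuclease of resection, moved by -0.02, and Eme1 and Mus81, which form a junction-cutting nuclease, by -0.06 and -0.16.

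All 5 Fanconi genes were above 0 with Rb1 loss but by 0.03 to 0.13, with a median of 0.08 and 0 called. They were Fanca, Fancc and Fancl, members of the core complex, and Fancd2 and Fanci, the pair that the complex marks with ubiquitin. Of the 5 genes of mismatch, base, single-strand and nucleotide repair 1 was above 0 and 4 below, with a median of -0.08 and 0 called. Msh6, which reads mismatches, moved by 0.07, and Ung, which removes uracil from DNA, by -0.02. Xrcc1 and Parp1, the scaffold and sensor of single-strand breaks, moved by -0.09 and -0.08, and Ercc1, a subunit of an excision nuclease, by -0.26 ± 0.15 with an adjusted p of 0.584. In end joining, Xrcc5 and Xrcc6, the Ku subunits, both moved by -0.12, and Polq, the polymerase of the alternative route, by 0.22, with 0 of 3 called.

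The intervals bound most changes with Rb1 loss, though not below the size of the called ones. A band of 1.5-fold is wider than the changes of Brca1 (1.34-fold) and Clspn (1.33-fold). On simulated arrays, this comparison recovered 43% of genes changed by 1.3-fold. The 95% interval lay wholly within 1.5-fold of no change for 33 of 36 members, the exceptions being Brca1, Clspn and Atm, and within 2-fold for all 36. Over all members the interval reached from -0.57, for Ercc1, to 0.81, for Atm. The 7 members with an E2F-type word in the first listed window had a median change of 0.07 (-0.12 to 0.41) with 1 called, and the 23 with no such word there, Rmi1 among them, had -0.02 (-0.26 to 0.45) with 1 called.

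**Figure D2:**
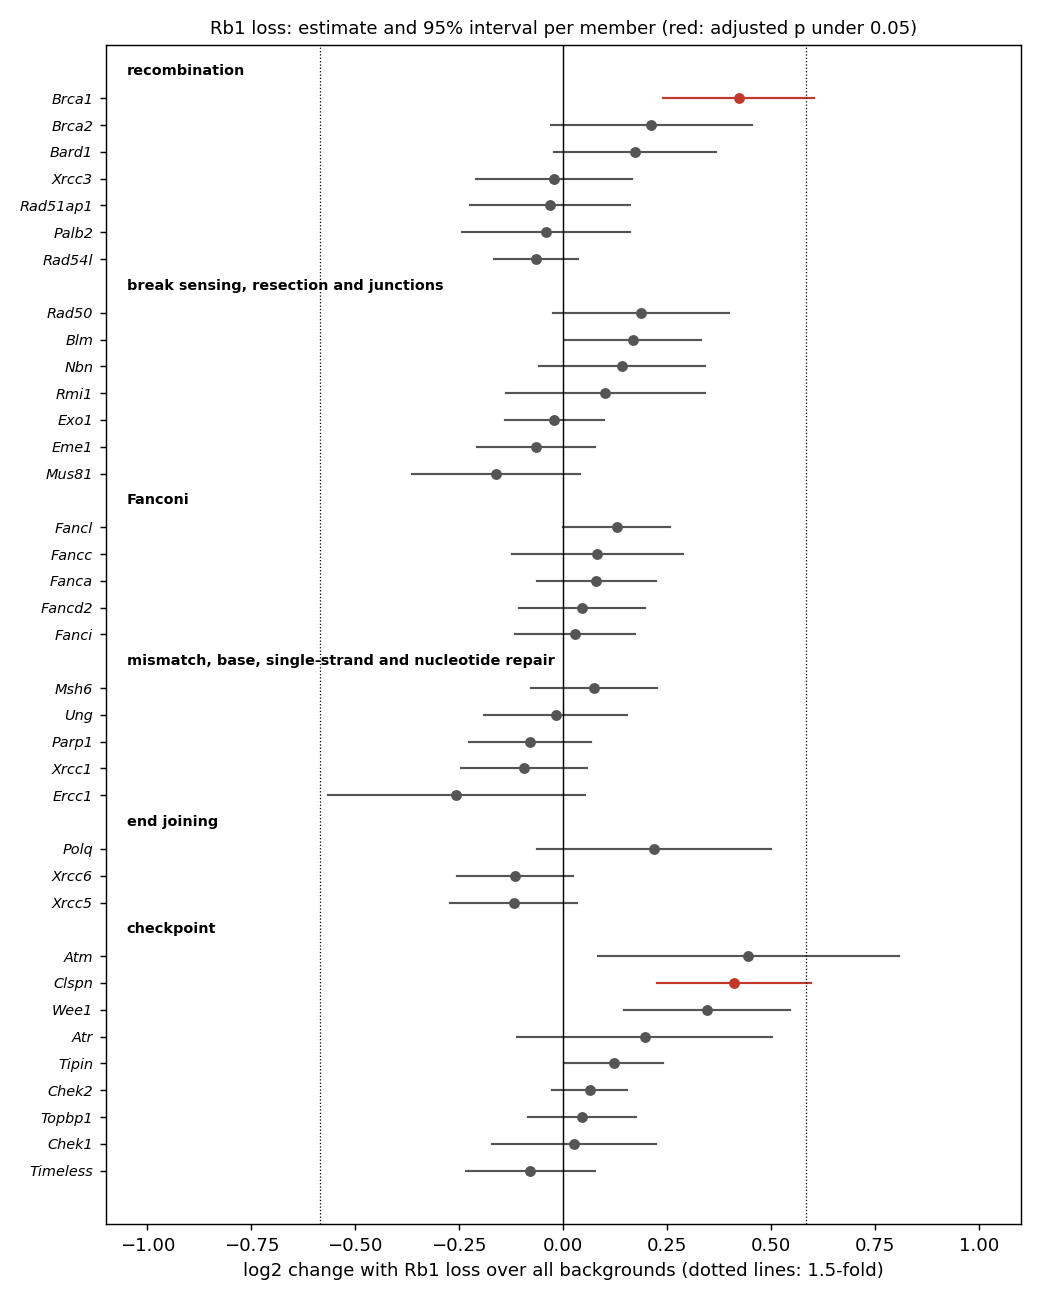
Points are the fitted log2 change of each of 36 members with Rb1 loss over all backgrounds and lines the 95% intervals, grouped by role, with dotted lines at 1.5-fold. Brca1 and Clspn, in red, passed the threshold, and the intervals of these genes and of Atm reach past 1.5-fold.

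With p107 loss over all backgrounds, 0 of 36 members passed in limma, against 1.14% of all genes (0.417% higher and 0.723% lower). Of the 36, 26 were above 0 and 10 below, with a median of 0.07 (all genes, 0.00), and 8 (22.2%) stood at an unadjusted p under 0.05, against 17.0% of all genes. The nearest to the threshold was Exo1, whose signal was 1470 and 1267 in wild type, 1784, 1224 and 1400 in the p130 KO, 1394 and 1312 in the Rb1 KO, and 1150 to 1664 with a median of 1445 in the Rb1;p130 DKO. Without p107 it was 1668 in the p107 KO, 1527 to 1906 with a median of 1671 in the p107;p130 DKO, 1479, 1486, 1588, 1851 and 1414 in the Rb1;p107 DKO, and 1518 to 1950 with a median of 1637 in the TKO. The pooled ranges with and without p107 overlapped. Among genotypes that differ in p107 alone, the p107;p130 DKO overlapped the p130 KO, and the TKO overlapped the Rb1;p130 DKO. Every Rb1;p107 DKO array lay above both Rb1 KO arrays, and the p107 KO array lay above both wild-type arrays. The share of all genes that separate in this way was not counted. The fitted change was 0.20 ± 0.06, or 1.15-fold, with an adjusted p of 0.0656. With the mean of its 3 probe sets it was 0.09 with an adjusted p of 0.554. Wee1 followed at 0.27 ± 0.09 with an adjusted p of 0.136. All 36 intervals lay within 1.5-fold.

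With p130 loss over all backgrounds, 0 of 36 members passed in limma, against 0.0157% of all genes, and 2 (5.56%) stood at an unadjusted p under 0.05, against 10.1% of all genes. Of the members 23 (63.9%) were above 0 and 13 below, against 57.9% of all genes above 0, with a median of 0.02 beside 0.03 for all genes. The nearest were Palb2 at 0.31 ± 0.10 and Eme1 at 0.21 ± 0.07, both with an adjusted p of 0.396. The interval of 35 members lay within 1.5-fold.

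Between single pairs of genotypes 0 of 36 members passed in limma in each of 4 comparisons. For the TKO against the p107;p130 DKO, in which 0.377% of all genes were called (0.299% higher and 0.0786% lower), 24 members (66.7%) were above 0 with a median of 0.08, against 47.2% of all genes above 0. At an unadjusted p under 0.05 stood 5 (13.9%), against 6.02% of all genes. Brca1 came nearest at 0.56 ± 0.15, or 1.47-fold, with an adjusted p of 0.101, and Clspn followed at 0.45 ± 0.15 with 0.371. For the Rb1;p130 DKO against the p130 KO, with 0.118% of genes called (0.0707% higher and 0.0472% lower), 22 members (61.1%) were above 0 with a median of 0.09, against 48.2% of all genes above 0. Here 4 (11.1%) stood at an unadjusted p under 0.05, against 5.30% of all genes. Nbn moved there by 0.49 ± 0.18 and Wee1 by 0.44 ± 0.19, with adjusted p-values of 0.682 and 0.876.

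Nbn is an example of how few arrays carry such a value. It was at 413, 341 and 474 in the p130 KO, the lowest group mean of the 8 genotypes, and at 470 to 786 with a median of 588 in the Rb1;p130 DKO. The p130 KO arrays and the lowest of the Rb1;p130 DKO overlapped only between 470 and 474. In the TKO and the p107;p130 DKO, Nbn was at 416 to 856 and 459 to 756, and the difference between them was -0.04. The test of whether the effect of Rb1 loss differed between these backgrounds gave -0.53 for Nbn and -0.75 for Ercc1, both with an adjusted p of 1.00, and called 0 of 36 members and 0 of all genes. At an unadjusted p under 0.05 it gave 2 of the 36 and 209 (1.64%) of all genes.

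For the TKO against the Rb1;p130 DKO, which differ in p107, 0.0236% of all genes were called and 24 members (66.7%) were above 0 with a median of 0.04, against 49.8% of all genes above 0. Exo1 was nearest at 0.20 and Xrcc3 next at 0.28, both with an adjusted p of 0.888, and 2 members (5.56%) stood at an unadjusted p under 0.05, against 5.44% of all genes. For the TKO against the Rb1;p107 DKO, which differ in p130, 0.00786% were called and 24 members (66.7%) were above 0 with a median of 0.06, against 56.8% of all genes above 0. Eme1 moved there by 0.29 and Palb2 by 0.39, both with an adjusted p of 0.660, and these were the 2 members (5.56%) at an unadjusted p under 0.05, against 7.47% of all genes. These comparisons share the TKO arrays and are not independent of one another. Their intervals were wider than in the additive fit, with 24 to 30 of 36 within 1.5-fold.

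**Figure D3:**
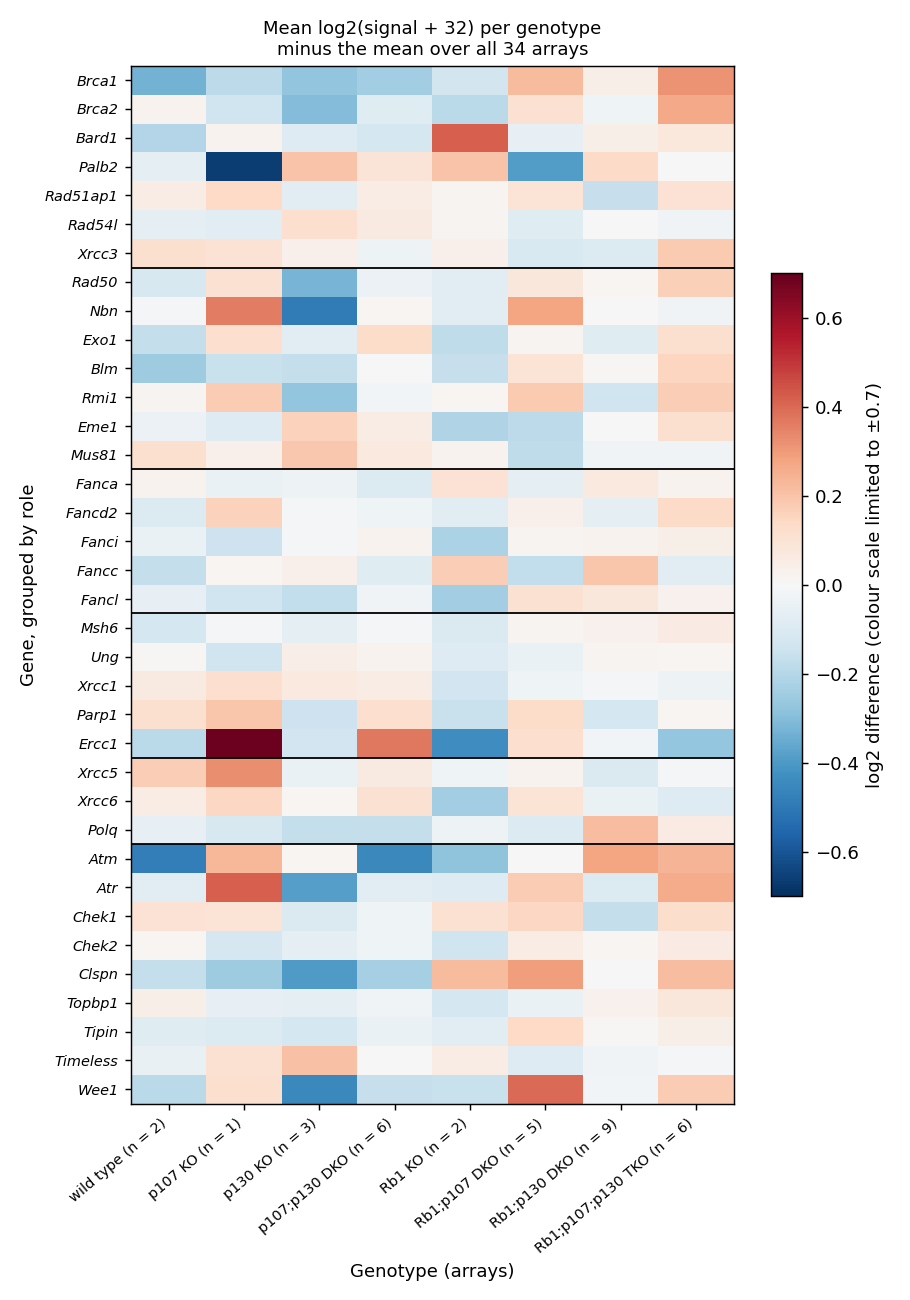
Colours give the mean log2(signal + 32) of each genotype minus the mean over the 34 arrays, for 36 members in rows by role and 8 genotypes in columns, red above and blue below. Brca1 and Clspn are red in the Rb1;p107 DKO and the TKO and blue in all 4 genotypes that carry Rb1. The other genotypes without Rb1 vary: Brca1 is at -0.13 in the Rb1 KO and 0.04 in the Rb1;p130 DKO, and Clspn at 0.22 and -0.01.

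The members also differed between groups of arrays that the labels do not name. Clustering the arrays by how the 2 brightest probe sets of each gene differed (log2), a measure that does not use genotype, gave 3 array groups of 15, 10 and 9, with 9, 6 and 7 arrays without Rb1. No batch is recorded for them, since they come from the signals alone. They hold genotypes unevenly: 4 of the 5 Rb1;p107 DKO arrays and the p107 KO array lie in the second group, and 4 of 9 Rb1;p130 DKO and 3 of 6 TKO arrays in the third. The median member had 27.6% of its variance between array groups, against 21.2% for all genes, and 22.5% between genotypes, against 22.3%. The share for array groups cannot be set against that for genotypes. A split into more groups takes up more variance by chance, and there were more genotypes than array groups.

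Palb2 led the members with 70.1% of its variance between array groups. Its mean signal was 661 ± 76.6 (SD, n = 15) in the first, 424 ± 70.9 (SD, n = 10) in the second and 635 ± 70.8 (SD, n = 9) in the third. Blm followed with 61.7%, at 2474, 3182 and 3284, then Brca1 with 54.8%, at 2244 ± 400, 3139 ± 540 and 3111 ± 246, and Tipin with 53.6%. At the other end, Xrcc5 had 2.0%, Exo1 2.5% and Atm 2.7%. With array group as a block, the p130 change of Palb2 was 0.10 instead of 0.31 and its adjusted p was 1.00.

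Brca1 and Clspn were higher without Rb1 inside the array groups as well. In the first group Brca1 was at 2139 to 2915 on the 9 arrays without Rb1 and at 1637 to 2100 on the 6 with it. In the second it was at 3156 to 3965 on 6 arrays and 2349 to 2751 on 4, and in the third at 2940 to 3520 on 7 and 2713 and 3011 on 2. Arrays with and without Rb1 did not overlap in the first and second groups, and did in the third, where Rb1 was present on 2 arrays.

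Clspn was at 2949 to 4025 without Rb1 and 2284 to 2631 with it in the first group, and at 3419 to 4700 against 2606 to 3324 in the second. In the third it was at 1911 to 4039 against 1962 and 2186. It too had no overlap in the first and second groups. Higher without overlap in both were 2 of 36 members and 0.55% of all genes, and lower were 0 members and 0.0707%. In the first group alone 2 members were higher without overlap, Brca1 and Clspn, against 0.857% of all genes, with 0 lower, against 0.173%, and in the second 3, the added one being Wee1, against 2.4%, and 0 were lower, against 1.42%. In the third group 0 were higher, against 3.4%, and 2 lower, Rad54l and Xrcc3, against 3.65%.

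The within-group differences for Rb1 loss were 0.41, 0.44 and 0.15 (log2) for Brca1, 0.44, 0.45 and 0.51 for Clspn, 0.35, 0.39 and 0.35 for Wee1, and 0.30, 0.32 and 0.84 for Atm. Of the 36 members 11 were above 0 in all 3 groups and 8 below 0 in all 3. The same count was not made over all genes, and the third group has only 2 arrays with Rb1, so no lean of the members is read from it. With array group as a block in the limma fit, 3 members passed for Rb1 loss, against 4.4% of all genes. They were Brca1 at 0.38 ± 0.05 (adjusted p = 6.32e-06), Clspn at 0.47 ± 0.08 (adjusted p = 7.00e-05) and Wee1 at 0.38 ± 0.09 (adjusted p = 0.0124). In the TKO against the p107;p130 DKO, Brca1 at 0.43 ± 0.09 (adjusted p = 0.00906) and Clspn at 0.53 ± 0.13 (adjusted p = 0.0285) then passed, against 0.865% of all genes. The array groups were cut from these same signals, so the smaller p-values are no independent check of the main fit. Calls for Rb1 loss rose over all genes too, from 2.26% without the block to 4.4% with it.

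**Figure D4:**
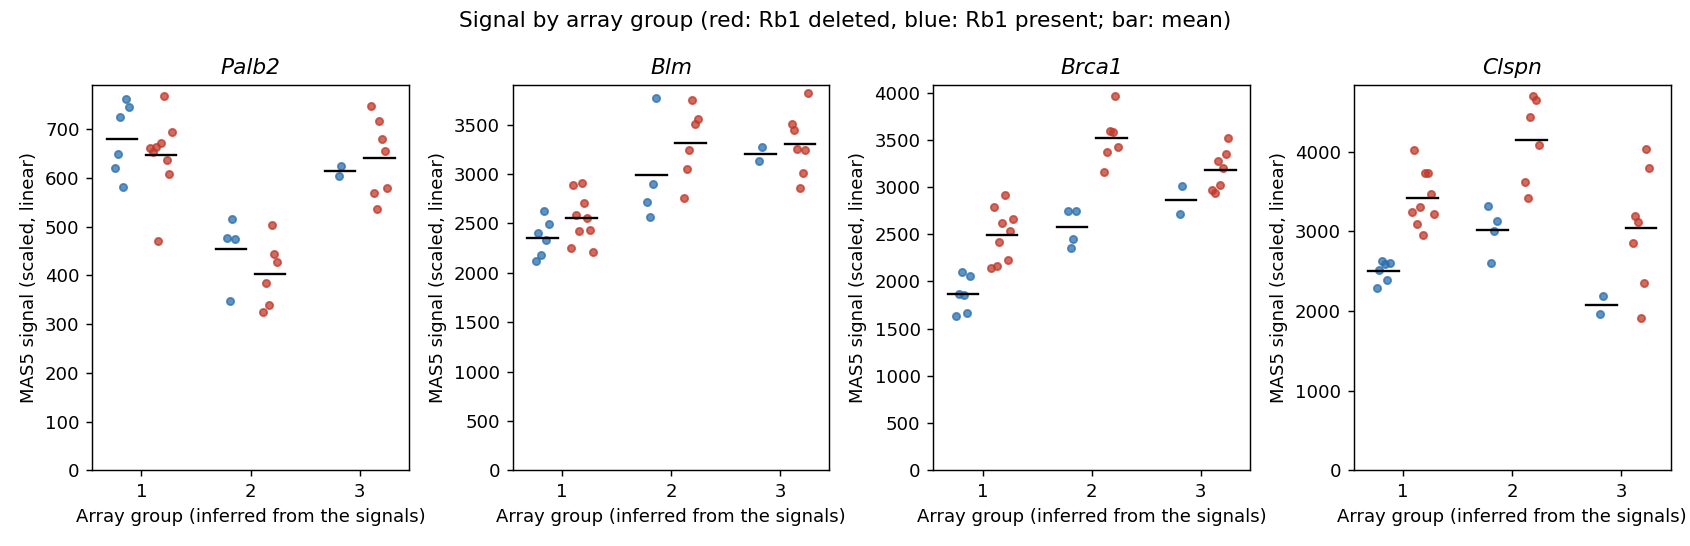
Points are the scaled linear MAS5 signal of single arrays for Palb2, Blm, Brca1 and Clspn, split by array group on the horizontal axis, red without Rb1 and blue with it, with bars at the mean. Palb2 is lower in array group 2 whatever the state of Rb1, while Brca1 and Clspn have no overlap between red and blue in array groups 1 and 2.

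Further repair genes were read from a second list of 116, of which 106 were tested. With Rb1 loss, 6 were called higher and 0 lower (5.66%, against 2.26% of all genes), with a median of 0.01. Swsap1, a recombination gene, moved by 0.74 ± 0.14, or 1.67-fold (adjusted p = 7.44e-04). Rnf8 and Rnf168, the ubiquitin ligases that mark chromatin beside breaks, moved by 0.27 and 0.29 with adjusted p-values of 0.00166 and 0.00605. Rad51c, which also acts in recombination, moved by 0.33 ± 0.08 (adjusted p = 0.0128), and the others called were Etaa1, an activator of Atr, and Polh, a polymerase of lesion bypass. In the 7 other comparisons 0 of the 106 were called.

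Other measures moved beside the rises of Brca1 and Clspn. Of 17 tested S-phase genes 2 were called higher with Rb1 loss, Slbp and Uhrf1, with a list median of 0.10. Of 15 G2/M genes 4 were, Cdk1, Kif11, Prc1 and Tpx2, with a median of 0.20. Over all genes 1.75% were called higher, with a median of -0.02, and the median of the members was 0.05. The summed G2/M signal was 89106 to 133090 with a median of 102330 without Rb1, and 80481 to 113280 with a median of 90440 with it. The summed S-phase signal was 186340 to 260540 (median 209410) against 163410 to 237750 (median 201950). The ranges overlap on both lists, and their part in the results was not tested. In bulk tissue, fewer cells of a type and less RNA per cell cannot be told apart.

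Markers of the cell types in the tissue were not called with Rb1 loss. Of 6 erythroid, 8 hepatocyte, 9 macrophage, 9 neutrophil, 7 megakaryocyte, 8 stem and progenitor, 4 lymphoid, 8 endothelial and 8 stellate and mesenchymal genes tested, 0 passed. Of all genes 2.26% were called, a share at which lists this short would hold few calls, so the 0 says little about cell makeup. The summed erythroid signal was 93828 to 147780 (median 119200) without Rb1 and 88538 to 141760 (median 113160) with it. The macrophage sum was 8038 to 13554 (median 10853) against 9533 to 16395 (median 11925). The endothelial sum was 2907 to 5049 (median 3981) against 2698 to 4611 (median 3619). The ranges overlapped on each of these lists, and the sums were not tested.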

How the data were processed

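Total RNA was labelled with biotin and hybridised to 34 one-colour Affymetrix arrays. The authors deposited intensity, the linear MAS5 signal per probe set, made in GCOS 1.4 per the submitters' processing notes. The number of arrays limits the precision. Depth does not apply to arrays, and the median signal per array was 80.6 to 115.9.

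Of 45037 probe sets, 34945 had 1 gene symbol in the platform annotation, 932 had several and were left out, and 9160 had none. Arrays were rescaled to a 2% trimmed mean of 500 (deposited values 495.38 to 497.74) and log2(signal + 32) was taken. The brightest probe set on average stood for its gene. Genes that reached a signal of 100 on 2 or more arrays were tested with limma 3.58.1 in R 4.3.3 (eBayes with trend, two-sided), over all 12723 genes. An additive fit had 1 term per deleted gene, and another had 1 mean per genotype. Calls are at a Benjamini-Hochberg adjusted p under 0.05, and intervals are 95%. Steps were tested on simulated data.

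The members and lists were chosen with earlier results of these data known. Members that passed were named with full values, as were the 2 with the largest statistic otherwise in each comparison, and up to 4 further repair genes. The p107 KO has 1 array and entered the fits but no comparison of its own. Array groups were clustered (average linkage, 1 minus correlation, 3 groups set) from 2 probe sets per gene with a median of at least 300. Counts of overlap within array groups were added after the data were seen. Replicate numbers in the titles did not pair the arrays. Xist was called present at a signal of 1000 or more. Alternatives were pseudocounts of 1 and 100, no filter or at least 200 on 6 arrays, the mean of all probe sets, quantile normalization, eBayes without trend or robust, array weights, only the arrays compared, replicate, Xist or array group blocks, 2 arrays left out together, and each array left out in turn.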

Additional observations from a re-analysis of the deposited data

Results flagged for a closer look

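The 144 combinations of a member and a genotype with 4 to 10 arrays were examined. In 10 of them an array lay far from the others of its group. Chance would flag about 5% of the 144, and the count is close to that share. The combinations share arrays and are not independent. In each of the 10 the array was the lowest, and 4 of the 10 were on array 9 of the Rb1;p130 DKO. On that array Clspn was at 1911 against 2854 on the next lowest, Atm at 130 against 322, Rad51ap1 at 1114 against 1881 and Timeless at 1153 against 1421. Brca1 was at 2166 on array 1 of the Rb1;p107 DKO, the 1 array of that genotype in the first array group, against 3156 on the next.

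In the p107;p130 DKO, Bard1 was at 86.5 on array 5 against 149, Polq at 19.3 on array 2 against 92.0, and Chek1 at 627 on array 4 against 997. Parp1 was at 4531 on array 1 of the TKO against 5710, and Xrcc5 at 472 on array 2 of the Rb1;p107 DKO against 600.0. No member's effect of Rb1 loss differed between backgrounds past the threshold.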

How the results depend on the processing

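For Rb1 loss over all backgrounds, the count of members called was 2 to 3 over the 13 alternatives and 2 to 3 with each array left out, Wee1 being the third. Brca1 passed in all of these, with an adjusted p of 6.32e-06 to 0.0207 over the alternatives and 8.60e-04 to 0.0158 with an array left out. Clspn passed in 12 of 13, failing with the mean of all probe sets (0.27, adjusted p = 0.194), and with each array left out (adjusted p 5.18e-04 to 0.0210). Wee1 had an adjusted p of 0.00322 to 0.0719 over the alternatives. Rnf168 was lost with the mean of all probe sets (0.23, adjusted p = 0.245). With presence of Xist as a block, 2 members were called.

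For p107 loss over all backgrounds the count was 0 and became 1, Exo1, with the filter raised to 200 on 6 or more arrays, with quantile normalization, with array weights and without arrays 8 and 9 of the Rb1;p130 DKO. With the mean of all probe sets Exo1 moved by 0.09 instead of 0.20 (adjusted p = 0.554). The count ranged from 0 to 1 with an array left out (p130 KO array 1, Rb1;p130 DKO arrays 4, 7 and 9, or TKO array 5). For the TKO against the p107;p130 DKO the count was 0 and became 1 with the mean of all probe sets, 2 with array weights and 2 with array group as a block. It ranged from 0 to 1 with an array left out, Brca1 being called without p107;p130 DKO array 4. The replicate number, as a block, gave 1 member for p107 loss (Exo1), 1 for the TKO against the p107;p130 DKO (Brca1) and 3 for Rb1 loss. Deviations of same-numbered arrays correlated at a median r of 0.07 over 67 pairs, so the numbers are not taken as pairing. In the other 5 comparisons the count was 0 in every alternative run and with each array left out. Except for the array group block, the share of all genes called in each alternative run is not given beside these counts. A count that rises is therefore not read as a result about the members. Of the 8 genes whose change was recomputed under the alternatives (Brca1, Clspn, Wee1, Exo1, Swsap1, Rnf8, Rnf168 and Rad51c), none changed sign.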
